A study of Mus musculus with 12 samples.

Results

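Cholesterol synthesis and its control by SREBP transcription factors were followed through 30 genes, named by symbol and looked up among the row names of a deposited expression table of 15672 genes. All 30 were in the table, and all 30 passed the filter that a gene needs a log2 CPM (log2 of counts scaled to library size) above 0 in at least 3 of the 12 libraries, which left 14147 genes for testing. The 30 comprise 19 enzymes of the route from acetyl-CoA to cholesterol and its prenyl side branch, 5 genes of SREBP regulation, 2 genes of sterol transport and efflux and 4 genes of fatty acid synthesis. Bulk RNA-seq was made from tumour tissue labelled MB, the usual short form of medulloblastoma, a tumour of the cerebellum, in mice of both sexes at end point. The YSGr tumours (fYap1;fSMO-M2;hGFAPcre, called rescued in the labels) carried a floxed allele of Yap1, a transcriptional coactivator restrained by the Hippo pathway, and the SG tumours (fSMO-M2;hGFAPcre) did not. Both genotypes carried the conditional SMO-M2 allele, a constantly active form of the Hedgehog signal transducer Smoothened, and Cre recombinase under the human GFAP promoter, which is active in neural stem cells and astrocytes of many brain regions and not in the tumour lineage alone. There were 3 libraries each of YSGr females, YSGr males, SG females and SG males, with no age, litter or animal number in the labels and no library from normal cerebellum. The labels do not say that each library is another animal, so every p-value rests on the spread between libraries, part of which may be technical.

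Cholesterol is built from acetyl-CoA through mevalonate, isoprenoid diphosphates, squalene and lanosterol, and the last steps turn lanosterol into cholesterol. When sterols in the endoplasmic reticulum are low, the escort protein Scap carries SREBP precursors to the Golgi, where proteases release the active factors. SREBP-2 acts chiefly on sterol genes and SREBP-1 chiefly on fatty acid genes, and when sterols are plentiful the Insig proteins hold Scap and SREBP back. The brain makes its own cholesterol because lipoproteins of the blood do not cross into it, and myelinating oligodendrocytes use much of it. Sterols also bind Smoothened, the protein whose active form the SMO-M2 allele encodes.

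Libraries held 8854769 to 9478652 estimated reads, and the members had between 77 and 17871 estimated reads per library. Yap1 was -0.02 to 1.82 log2 CPM in YSGr libraries and 4.29 to 4.80 in SG libraries (log2 fold change -3.64, SE 0.20, limma adjusted p = 1.1e-06), in the direction of the labels. Some libraries stood apart. SG male 2 lay alone on the third principal component, at -57.0 against 12.1 to 18.3 in the other SG libraries. YSGr male 8 lay farthest out on the first, at 74.5, and had by far the most RNA of a list of 7 oligodendrocyte markers, whose summed level was 8065 CPM there. That sum ranged from 321 to 8065 CPM over YSGr libraries and from 819.5 to 1882 CPM over SG libraries. YSGr female 12 had the least, with 4.03 as the mean log2 CPM of the 7 markers, and the highest mean of 12 cell cycle genes, 7.41 log2 CPM. Bulk RNA cannot tell fewer cells of a type from less RNA per cell.

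With the sexes weighted equally, Srebf1, Mvk, Acat2, Srebf2 and Dhcr7 were lower in YSGr than in SG tumours, and Insig2 was higher. The test was limma with the 4 groups of genotype and sex as coefficients, Benjamini-Hochberg adjustment over all 14147 genes and a threshold of 0.05. Thus 5 of the 30 members (16.7%) passed as lower, where 5.27% of all genes did, and 1 member (3.33%) passed as higher, where 6.16% of all genes did. In the same 5 members all 6 YSGr libraries lay below all 6 SG libraries, which held for 2.96% of all genes. In Insig2 all 6 YSGr libraries lay above all 6 SG libraries, as in 2.93% of all genes. The estimated log2 fold change was below 0 in 22 of the 30 members (20 after quantile normalization, which turned Fasn and Scd2), with a median of -0.23, and in 50.6% of all genes, with a median of -0.00. Before adjustment 13 members had a p under 0.05, and 28.6% of all genes did. The other 24 members did not pass.

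**Figure D1:**
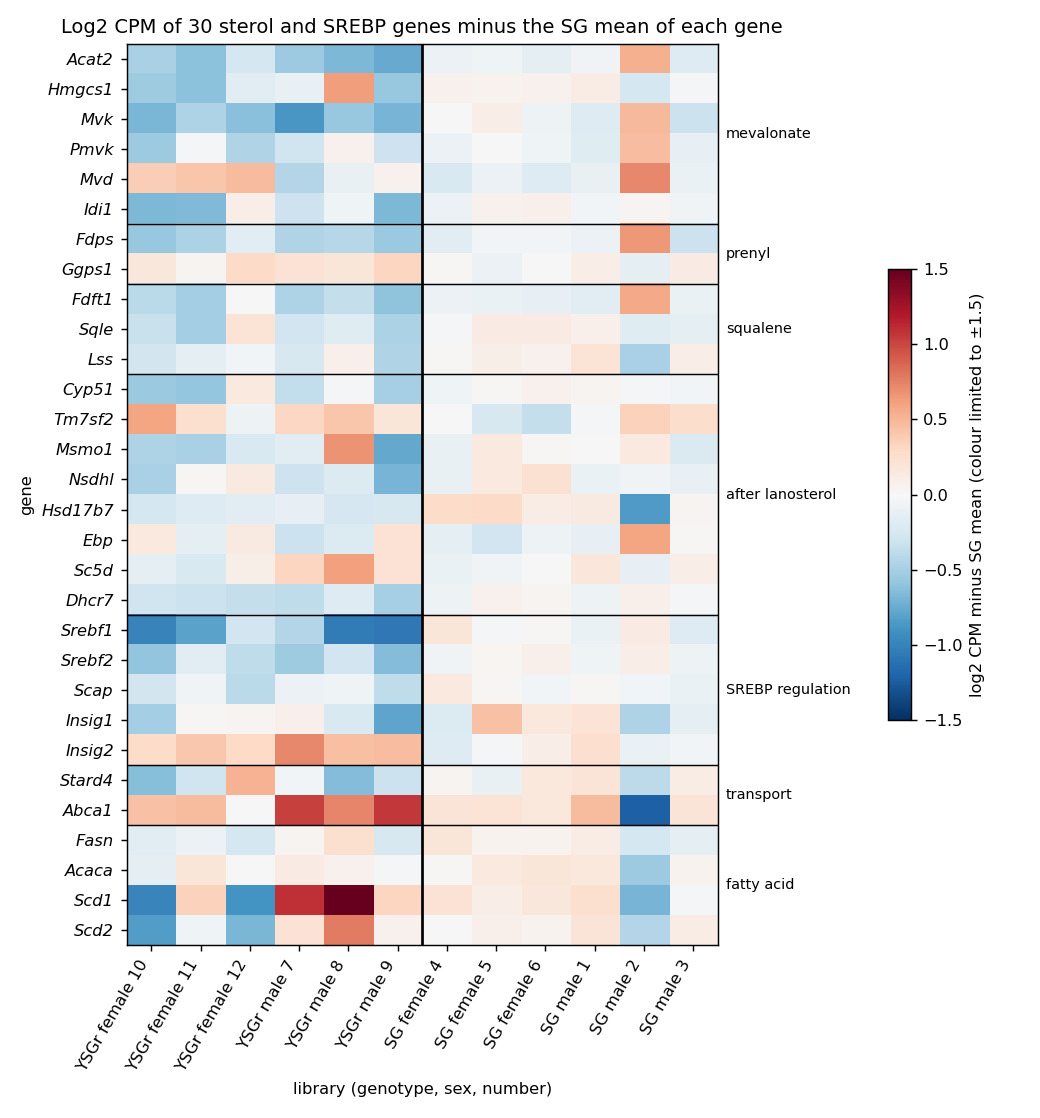
Log2 CPM of each of the 30 genes minus that gene's mean over the 6 SG libraries, by library, with YSGr libraries to the left of the line and SG libraries to the right. Blue is below and red above the SG mean, the colour is limited to 1.5 log2 units either way, and the rows follow the order of the pathway.

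Taken library by library, the 19 enzymes did not shift equally in the YSGr tumours. The median of the 19 deviations from the SG mean was -0.40 in YSGr female 10, -0.32 in YSGr female 11 and -0.04 in YSGr female 12. It was -0.31 in YSGr male 7, -0.11 in YSGr male 8 and -0.50 in YSGr male 9. Over the SG libraries it ran from -0.09 to 0.08. The YSGr libraries nearest to SG were therefore female 12 and male 8, the libraries with the lowest and the highest oligodendrocyte marker levels. In YSGr female 10 as many as 13 of the 19 enzymes were below the range of the 6 SG libraries, and in YSGr female 12 only 5 were. This was not counted over all genes, so the counts do not show whether the shift was particular to the enzymes. Left out of the fit, YSGr female 12 raised the number of members called lower to 10, against 6.31% of all genes, adding Idi1, Fdps, Fdft1, Sqle and Cyp51.

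**Figure D2:**
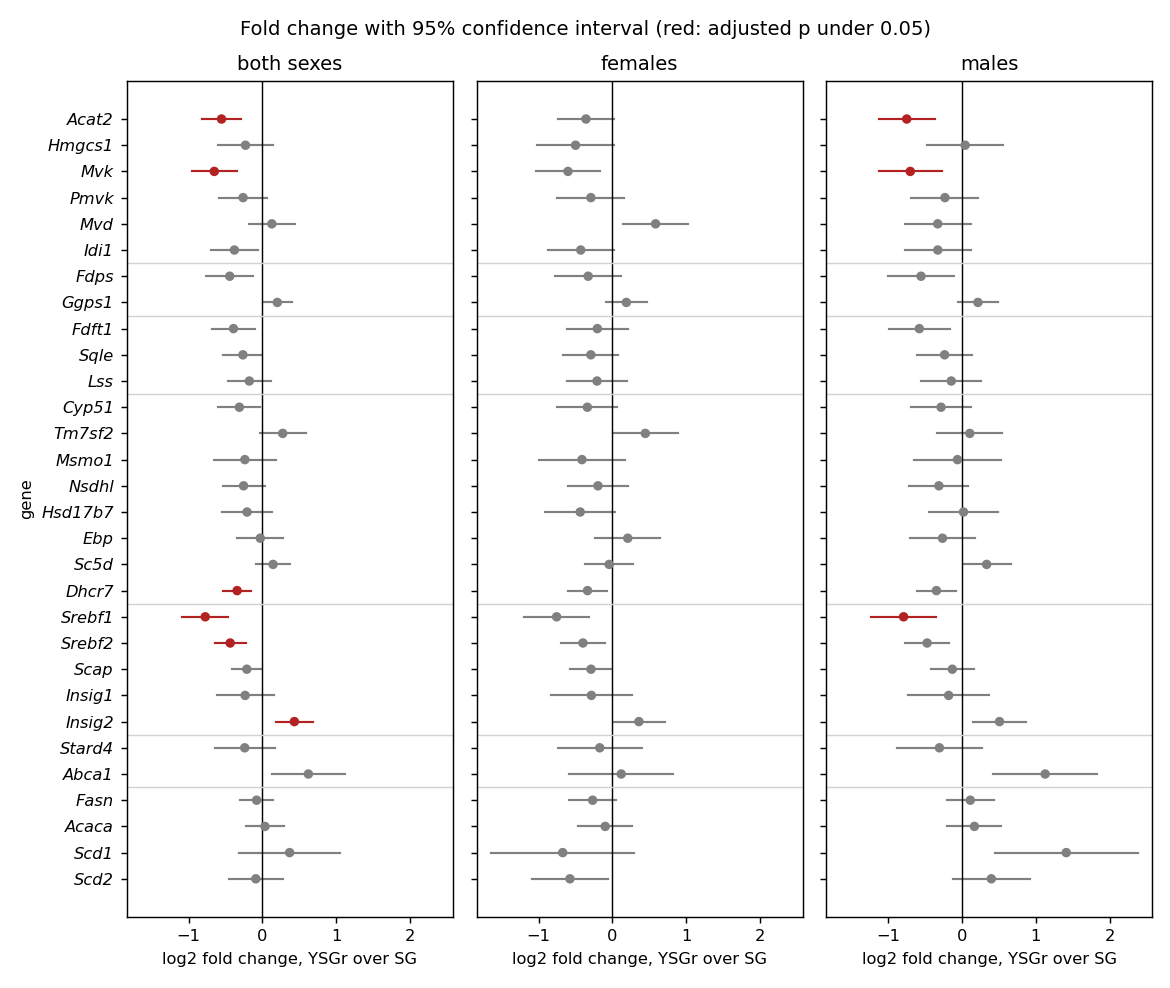
Log2 fold change of each member, YSGr over SG, with its 95% confidence interval, for both sexes together, females and males on 1 shared axis. Red marks an adjusted p under 0.05; 22 of the 30 points for both sexes together lie to the left of 0, many with intervals that reach past it, and 6 genes are red for both sexes together, none for females and 3 for males.

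The promoters of Mvk, Srebf2, Acat2, Insig2 and Hmgcs1 are shown because the first 4 belong to genes that changed and the last holds the only match to the full sterol regulatory element among the members. RefSeq promoter windows (GRCm38.p6) were found for 24 of the 30 members, in 32 windows, and the 250 bases before the annotated start are printed 5′ to 3′ on the strand of the gene. Capitals mark matches on either strand to TCACNCCAC or the shorter CACNCCAC, the element bound by SREBPs, and to CCAAT, the box bound by NF-Y, a factor known to act together with SREBPs.
Mvk, chr5:114444019-114444268, plus strand: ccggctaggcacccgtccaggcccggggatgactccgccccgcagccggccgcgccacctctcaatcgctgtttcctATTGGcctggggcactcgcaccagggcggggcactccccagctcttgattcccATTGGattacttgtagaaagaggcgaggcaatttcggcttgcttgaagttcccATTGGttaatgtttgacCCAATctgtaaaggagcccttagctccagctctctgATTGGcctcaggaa
Srebf2, chr15:82147019-82147268, plus strand: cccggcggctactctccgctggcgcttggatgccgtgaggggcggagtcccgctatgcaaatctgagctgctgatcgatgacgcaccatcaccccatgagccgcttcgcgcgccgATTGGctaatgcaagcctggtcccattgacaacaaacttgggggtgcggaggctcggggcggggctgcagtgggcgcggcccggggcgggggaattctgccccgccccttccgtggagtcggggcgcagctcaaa
Acat2, chr17:12960726-12960975, minus strand: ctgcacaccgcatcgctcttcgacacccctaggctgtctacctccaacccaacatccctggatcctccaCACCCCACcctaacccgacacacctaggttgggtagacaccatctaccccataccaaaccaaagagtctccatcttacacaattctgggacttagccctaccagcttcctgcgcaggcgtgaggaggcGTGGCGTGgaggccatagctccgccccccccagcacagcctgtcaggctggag
Insig2, chr1:121332590-121332839, minus strand, 1 of 3 annotated starts: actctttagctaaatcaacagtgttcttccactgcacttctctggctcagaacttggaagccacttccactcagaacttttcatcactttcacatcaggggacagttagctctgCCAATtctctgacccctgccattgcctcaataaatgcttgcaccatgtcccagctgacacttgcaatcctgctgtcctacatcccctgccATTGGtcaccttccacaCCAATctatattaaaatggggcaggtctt
Hmgcs1, chr13:119690101-119690350, plus strand: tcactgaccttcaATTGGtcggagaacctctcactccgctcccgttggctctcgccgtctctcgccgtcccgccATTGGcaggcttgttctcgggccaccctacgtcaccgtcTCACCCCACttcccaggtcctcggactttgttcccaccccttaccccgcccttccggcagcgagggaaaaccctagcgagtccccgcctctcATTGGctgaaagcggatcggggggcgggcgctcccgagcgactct

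The full element TCACNCCAC was found before the start of 1 of the 24 members, Hmgcs1, and of 1.22% of all genes, or in 1.05% of all 32851 windows. The shorter CACNCCAC, which every full element contains, was found in Acat2, Hmgcs1 and Insig1, that is in 9.38% of the 32 member windows and 5.29% of all windows. CCAAT was found in 20 of the 24 members, in 65.6% of their windows and 33.8% of all. The Mvk promoter held 5 such boxes, the printed Insig2 window and the Hmgcs1 promoter 3 each, the Srebf2 promoter 1 and the Acat2 promoter 0. The Insig2 window was printed because it held the most motif matches, and the windows of the other annotated Insig2 starts held 0 CCAAT boxes. The SP1 box GGGCGG was found in 20 of the 24 members, in 71.9% of their windows and 32.7% of all. The box GGAATG of the TEAD factors, the DNA-binding partners of Yap1, was in 0 of the 24 members. It was in 14.4% of the 27025 genes, or 12.6% of all windows. Each motif was searched on both strands by its exact letters, with N as any base, so sites that differ from it were not counted. These matches describe letters and not binding, and a motif that is missing from 250 bases may lie elsewhere.

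Among the 6 enzymes from acetyl-CoA to isopentenyl diphosphate, Acat2 and Mvk fell, 5 of the 6 estimates were below 0 and the median was -0.32. Acat2 (chromosome 17, 12942890 to 12960747) encodes the thiolase that joins acetyl-CoA units. Its log2 CPM was 5.86, 5.73 and 6.08 in YSGr females and 5.80, 5.67 and 5.58 in YSGr males, against 6.26, 6.27 and 6.21 in SG females and 6.29, 6.88 and 6.15 in SG males. No YSGr library reached the lowest SG library, and the highest SG value belonged to SG male 2. The log2 fold change was -0.55 (SE 0.12, adjusted p = 0.013), or 1.47-fold lower, and without SG male 2 it was -0.44 (adjusted p = 0.0057).

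Mvk (chromosome 5, 114444269 to 114460591), mevalonate kinase, had 4.29, 4.50 and 4.34 log2 CPM in YSGr females and 4.09, 4.40 and 4.27 in YSGr males. In SG females it had 4.96, 5.07 and 4.89 and in SG males 4.77, 5.46 and 4.65. The groups did not overlap in either sex, and SG male 2 was again the highest library. Mvk was 1.57-fold lower in YSGr (log2 fold change -0.65, SE 0.14, adjusted p = 0.010) and fell by 0.53 on the log2 scale without SG male 2 (adjusted p = 0.0050).

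Hmgcs1, the synthase that makes HMG-CoA, showed the widest spread over YSGr libraries of the mevalonate enzymes, with an SD of 0.47 in YSGr and 0.14 in SG (n = 6 each). It had 6.38, 6.30 and 6.75 log2 CPM in YSGr females and 6.80, 7.54 and 6.34 in YSGr males, against 6.98, 6.97 and 6.98 in SG females and 7.03, 6.65 and 6.90 in SG males. YSGr male 8 was the highest of all 12 libraries, while the other 5 YSGr libraries were below every SG library but SG male 2. The estimate was -0.23 (SE 0.17, adjusted p = 0.40). Without both SG male 2 and YSGr male 8, an alternative chosen after seeing the data, it was -0.44 and passed (adjusted p = 0.026).

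The other 3 mevalonate enzymes did not pass. Pmvk, phosphomevalonate kinase, had an estimate of -0.26 (SE 0.15, adjusted p = 0.27), with 4 of 6 YSGr libraries below the lowest SG library. Idi1, the isomerase of isopentenyl diphosphate, had -0.38 (SE 0.15, adjusted p = 0.11), with YSGr female 12 as its highest library at 5.92 log2 CPM. YSGr male 9, YSGr female 10 and YSGr female 11 were its lowest, at 5.15, 5.15 and 5.16. Mvd, the decarboxylase that yields isopentenyl diphosphate, had 0.13 (SE 0.15, adjusted p = 0.59). Its estimates had opposite signs in the sexes, 0.59 in females and -0.33 in males.

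**Figure D3:**
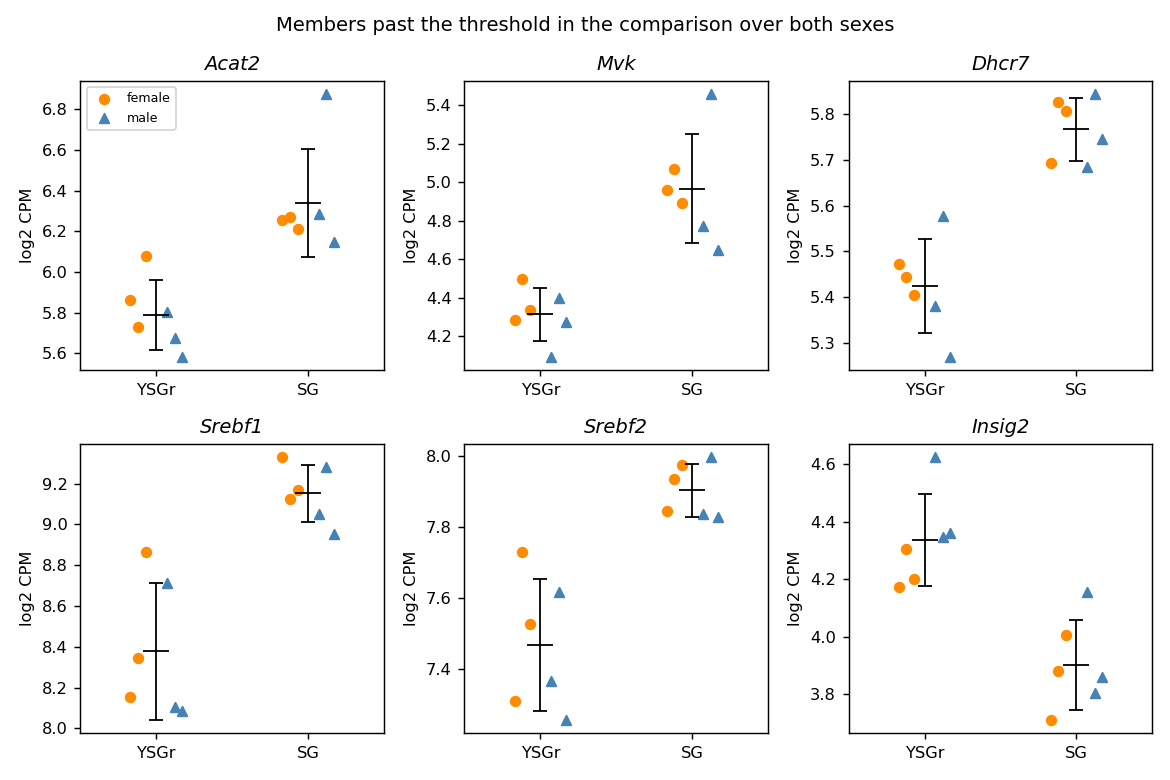
Log2 CPM of the 6 members past the threshold in each library, YSGr left of SG in every panel, with females as circles and males as triangles. The horizontal bar is the mean and the whiskers are 1 SD over 6 libraries; in each panel the 2 genotypes do not overlap, and Insig2 alone is higher in YSGr.

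Of the prenyl diphosphate synthases, neither passed. Fdps, which makes farnesyl diphosphate, had 5.40 to 5.80 log2 CPM in YSGr and 5.65 to 6.62 in SG, and 5 of 6 YSGr libraries were below every SG library (log2 fold change -0.44, SE 0.15, adjusted p = 0.070). It passed without SG male 2, without SG male 3 and without YSGr female 12. Ggps1, which makes geranylgeranyl diphosphate for protein prenylation and not for cholesterol, had the opposite sign (0.20, SE 0.09, adjusted p = 0.16). All 3 YSGr libraries lay above all 3 SG libraries for Ggps1 in females and again in males.

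The 3 enzymes from farnesyl diphosphate to lanosterol were all estimated below 0, and none passed. Sqle, squalene epoxidase and a rate-limiting step, had 5.95, 5.78 and 6.50 log2 CPM in YSGr females and 6.00, 6.11 and 5.82 in YSGr males. It had 6.27, 6.41 and 6.41 in SG females and 6.37, 6.11 and 6.15 in SG males. YSGr female 12 was the highest of all 12 libraries and the other 5 YSGr libraries were below the lowest SG library. The estimate was -0.26 (SE 0.12, adjusted p = 0.18), and without YSGr female 12 it was -0.37 and passed. Fdft1, squalene synthase, had -0.39 (SE 0.13, adjusted p = 0.078). It shares 18.3% of its exon bases with Ctsb on the opposite strand, the gene of a lysosomal protease, which was higher in YSGr (0.39, SE 0.11, adjusted p = 0.034), and the use of strand in counting is not given in the sources used here. Lss, lanosterol synthase, had -0.18 (SE 0.13, adjusted p = 0.40), and SG male 2 was its lowest library.

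Between lanosterol and cholesterol 1 of 8 enzymes fell, Dhcr7, and the median of the 8 estimates was -0.22. Dhcr7 (chromosome 7, 143823145 to 143848410) reduces 7-dehydrocholesterol to cholesterol. It had 5.47, 5.44 and 5.41 log2 CPM in YSGr females and 5.38, 5.58 and 5.27 in YSGr males, against 5.69, 5.83 and 5.81 in SG females and 5.69, 5.84 and 5.75 in SG males. The genotypes were separated by a gap of 0.11, between YSGr male 8 at 5.58 and SG male 1 at 5.69. The log2 fold change was -0.34 (SE 0.09, adjusted p = 0.025), or 1.27-fold lower. The call was lost when SG female 5 or 6, YSGr male 9 or YSGr female 10 was left out, where the adjusted p reached 0.077.

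Of the other 7 enzymes of this stretch, 5 had estimates below 0 and 2 above, and none passed. Cyp51, lanosterol demethylase, had -0.31 (SE 0.13, adjusted p = 0.14). Msmo1 and Nsdhl, which take part in removing the methyl groups at carbon C-4, had -0.24 (SE 0.19, adjusted p = 0.44) and -0.25 (SE 0.13, adjusted p = 0.22). Msmo1 was highest in YSGr male 8, at 6.10 log2 CPM, and lowest in YSGr male 9, at 4.65. Hsd17b7, a ketoreductase, had -0.21 (SE 0.15, adjusted p = 0.40). Its YSGr libraries spanned only 4.29 to 4.43, while SG male 2 was at 3.71 and the other SG libraries at 4.59 to 4.84. Without SG male 2 Hsd17b7 passed as lower, at -0.36. Ebp, a sterol isomerase, had -0.03 (SE 0.14, adjusted p = 0.92).

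The 2 enzymes estimated above 0 were Tm7sf2, a sterol C-14 reductase, at 0.28 (SE 0.14, adjusted p = 0.23), and Sc5d, a sterol desaturase, at 0.15 (SE 0.11, adjusted p = 0.39). Tm7sf2 was the enzyme with the fewest reads and shares 12.1% of its exon bases with Vps51 on the same strand.

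Both SREBP genes fell and Insig2 rose, while Scap and Insig1 did not pass. Srebf1 (chromosome 11, 60199089 to 60222581) encodes SREBP-1. It had 8.15, 8.35 and 8.86 log2 CPM in YSGr females and 8.71, 8.10 and 8.08 in YSGr males, against 9.33, 9.13 and 9.17 in SG females and 9.05, 9.28 and 8.95 in SG males. The highest YSGr library, female 12, was below the lowest SG library, male 3. Srebf1 was 1.71-fold lower (log2 fold change -0.77, SE 0.14, adjusted p = 0.0047), the largest decrease among the 30. Reads were summed over the gene, so its isoforms cannot be told apart.

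Srebf2 (chromosome 15, 82147181 to 82205379) encodes SREBP-2. Its log2 CPM was 7.31, 7.73 and 7.53 in YSGr females and 7.37, 7.62 and 7.26 in YSGr males. In SG females it was 7.85, 7.94 and 7.98 and in SG males 7.84, 8.00 and 7.83. All YSGr values lay below 7.83, the lowest SG value, and the SG libraries lay close together. The log2 fold change was -0.44 (SE 0.10, adjusted p = 0.013), or 1.35-fold lower. Scap had an estimate of -0.21 (SE 0.10, adjusted p = 0.17), and 3 of 6 YSGr libraries were below the lowest SG library.

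Insig2 and Insig1 encode the proteins that retain Scap. Insig2 (chromosome 1, 121304353 to 121332589) had 4.17, 4.31 and 4.20 log2 CPM in YSGr females and 4.63, 4.35 and 4.36 in YSGr males, against 3.71, 3.88 and 4.01 in SG females and 4.15, 3.80 and 3.86 in SG males. The lowest YSGr library stood 0.02 above the highest SG library, SG male 1. Insig2 was 1.35-fold higher (log2 fold change 0.43, SE 0.12, adjusted p = 0.030), but the call was lost in 7 of the 12 fits that left out 1 library, with an adjusted p of up to 0.083. Insig1, which in other tissues is itself a strong SREBP target, had 5.47, 6.00 and 6.01 in YSGr females and 6.05, 5.75 and 5.18 in YSGr males, against 5.77, 6.42 and 6.14 in SG females and 6.17, 5.52 and 5.83 in SG males. The genotypes overlapped and the estimate was -0.23 (SE 0.18, adjusted p = 0.41).

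For transport and efflux, neither gene passed. Abca1, the transporter that exports cholesterol to lipoprotein particles and is induced by the oxysterol receptors LXR, had 6.89, 6.92 and 6.45 log2 CPM in YSGr females and 7.48, 7.18 and 7.51 in YSGr males. It had 6.64, 6.65 and 6.60 in SG females and 6.92, 5.23 and 6.64 in SG males. All 3 YSGr males exceeded every SG library, and SG male 2 was far below the rest. The estimate was 0.62 (SE 0.23, adjusted p = 0.096) for both sexes and 1.13 in males (SE 0.32, adjusted p = 0.052). Without SG male 2 the estimate was smaller, 0.37, and passed (adjusted p = 0.043). Stard4, a carrier of cholesterol between membranes whose gene is an SREBP-2 target, had -0.24 (SE 0.19, adjusted p = 0.42) and ran from 5.37 to 6.54 log2 CPM in YSGr and from 5.62 to 6.22 in SG.

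None of the 4 genes of fatty acid synthesis passed when the sexes were weighted equally. Fasn, fatty acid synthase, had an estimate of -0.08 (SE 0.10, adjusted p = 0.66), and Acaca, acetyl-CoA carboxylase, had 0.04 (SE 0.12, adjusted p = 0.87). The intervals were -0.30 to 0.15 for Fasn and -0.22 to 0.29 for Acaca. All 4 genes were estimated below 0 in females and above 0 in males, though none passed the test of that difference. Fasn had -0.27 in females and 0.11 in males, and Acaca had -0.10 in females and 0.17 in males.

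The stearoyl-CoA desaturases Scd1 and Scd2, which put a double bond into saturated fatty acids, varied more between YSGr libraries than any other member. Scd1 had 5.07, 6.40 and 5.15 log2 CPM in YSGr females and 7.14, 8.40 and 6.38 in YSGr males, against 6.27, 6.15 and 6.22 in SG females and 6.29, 5.36 and 6.03 in SG males. The YSGr libraries thus lay on both sides of the SG libraries, with YSGr male 8 at the top and YSGr female 10 at the bottom. The SD over 6 libraries was 1.26 in YSGr and 0.35 in SG. Scd2 had 9.26, 10.05 and 9.42 in YSGr females and 10.32, 10.89 and 10.17 in YSGr males, against 10.11, 10.18 and 10.15 in SG females and 10.30, 9.67 and 10.22 in SG males. YSGr male 8 was again the highest, and YSGr female 10 and YSGr female 12 were the lowest. The estimates for both sexes together were 0.37 (SE 0.32, adjusted p = 0.46) for Scd1 and -0.09 (SE 0.17, adjusted p = 0.76) for Scd2.

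The mean log2 CPM of 7 oligodendrocyte markers (Mbp, Mag, Mog, Mobp, Cnp, Cldn11 and Ugt8a) moved with the desaturases over the YSGr libraries. It was 5.24, 6.44 and 4.03 in YSGr females 10 to 12 and 6.90, 8.74 and 6.77 in YSGr males 7 to 9. In SG libraries it ran from 5.51 to 6.77. The library with the highest marker mean had the highest Scd1 and Scd2, and the 2 YSGr libraries with the lowest means had the lowest Scd1 and Scd2 of that genotype. Between genotypes 0 of the 7 markers passed in limma, and 0 had an unadjusted p under 0.05. The part of myelinating cells in the desaturase values was not tested.

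**Figure D4:**
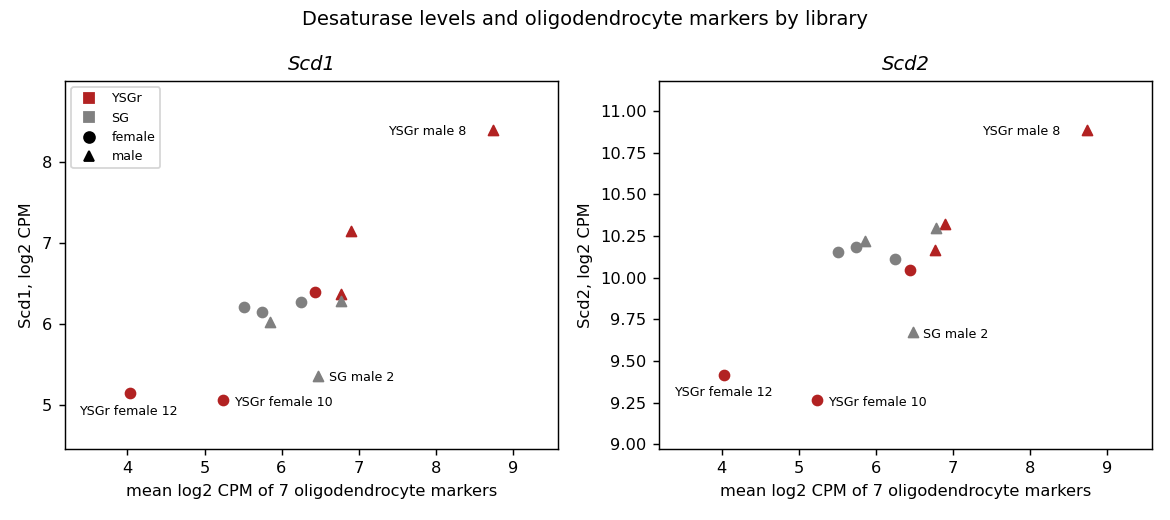
Log2 CPM of Scd1 (left) and Scd2 (right) against the mean log2 CPM of 7 oligodendrocyte markers, 1 point per library, with YSGr in red and SG in grey, females as circles and males as triangles. YSGr male 8 is at the upper right and YSGr female 10 and YSGr female 12 at the lower left of both panels. Of the 6 SG points 5 lie close together in Scd1 and in Scd2, and SG male 2 lies below them. The marker means of these 5 run from 5.51 to 6.77.

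Compared per kilobase of exon, so that genes can be set beside each other, Scd2 was the most abundant member at 203.8 ± 85.0 CPM per kb in YSGr and 203.6 ± 28.3 in SG (SD, n = 6 each). Srebf1 came next, with 60.4 ± 14.7 in YSGr and 101.3 ± 9.84 in SG, and then Fasn, with 45.6 ± 6.25 in YSGr and 48.1 ± 5.40 in SG. Srebf2 had 24.8 ± 3.25 in YSGr and 33.3 ± 1.75 in SG. Among the enzymes Acat2, Hmgcs1, Mvd and Fdft1 had the highest means in SG, from 23.1 to 32.3, and their ranges over libraries overlapped one another in both genotypes. Tm7sf2 was the lowest, at 3.01 ± 0.47 in YSGr and 2.49 ± 0.48 in SG, next to Lss at 3.21 ± 0.41 in YSGr and 3.64 ± 0.55 in SG. The ranges of these lowest genes overlapped as well. The length used was that of all annotated exons of a gene merged, 10787 bases for Lss and 4403 for Tm7sf2. It can exceed the length of the RNA present, and the ranks depend on it.

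Split by sex, the same direction was seen in most members, but fewer passed. In females 24 of the 30 estimates were below 0, with a median of -0.29, and 47.8% of all genes were, with a median of 0.01. There 0 members passed in either direction, against 1.87% of all genes lower and 1.15% higher. At an unadjusted p under 0.05 there were 8 members in females, namely Mvk, Mvd, Tm7sf2, Dhcr7, Srebf1, Srebf2, Insig2 and Scd2, and 15.1% of all genes. In males 19 estimates were below 0, with a median of -0.21, and 50.7% of all genes were, with a median of -0.01. There Acat2, at -0.75 (SE 0.18, adjusted p = 0.027), Srebf1, at -0.79 (SE 0.20, adjusted p = 0.038), and Mvk, at -0.70 (SE 0.20, adjusted p = 0.048), passed as lower. These 3 members are 10.0% of the 30, where 3.42% of all genes were lower, and 0 members passed as higher, where 4.43% of all genes did. At an unadjusted p under 0.05 there were 11 members in males and 29.9% of all genes. In females the estimates of the same genes were -0.36 for Acat2, -0.75 for Srebf1 and -0.60 for Mvk. Of the 3 calls in males, Acat2 alone remained without SG male 2, where 1.11% of all genes passed as lower. In males 0 members passed as lower without YSGr male 8, where 0.853% of all genes did, or without YSGr male 9, where 1.81% did.

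No member passed the test of whether the effect differed between females and males, and 1 gene of all 14147 did (0.00707%). The largest difference was that of Scd1, -2.08 (SE 0.63, adjusted p = 0.43), from an estimate of -0.67 (SE 0.45, adjusted p = 0.57) in females and 1.41 (SE 0.45, adjusted p = 0.066) in males. Abca1 had -1.004 (SE 0.46, adjusted p = 0.43), Scd2 -0.97 (SE 0.34, adjusted p = 0.43) and Mvd 0.92 (SE 0.29, adjusted p = 0.43). These were the 4 members with an unadjusted p under 0.05, which 11.6% of all genes had. Among the 6 called members the difference was between 0.01 and 0.10 for Srebf1, Srebf2, Mvk and Dhcr7, -0.14 (SE 0.23) for Insig2 and 0.40 (SE 0.25, adjusted p = 0.50) for Acat2.

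No member passed the test of females against males within a genotype. In YSGr the largest estimate, females minus males, was that of Scd1, at -1.77 (SE 0.45, adjusted p = 0.14), and 0.0778% of all genes passed. Scd2, Sc5d and Mvd also had an unadjusted p under 0.05 there, as did 18.1% of all genes. In SG 0 members had an unadjusted p under 0.05, 1.83% of all genes did, and 0.0353% passed.

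SG male 2 was outside the range of the other 5 SG libraries in 23 of the 30 members, above it in 10 and below it in 13. The share of all genes outside that range was not counted, so this is not shown to be particular to the members. The 10 genes above had summed exon lengths of 1713 to 7184 bases, with a median of 3442. The 13 below had lengths of 3093 to 17074 bases, with a median of 5464. The same order was present over all genes. The median deviation of SG male 2 from the other SG libraries was 0.50 log2 units in the 3526 genes with the shortest exon length, 201 to 2891 bases, and -0.48 in the 3520 with the longest, 6951 to 123179 bases. In the other SG libraries these medians lay between -0.10 and 0.13. Among the called members Acat2 and Mvk, both short, had their highest value in this library, 0.64 and 0.59 above the mean of the other SG libraries. Dhcr7 and Srebf2, with 5817 and 7184 bases of exon, also had their highest value there, though only 0.09 and 0.11 above that mean. All 4 passed without SG male 2.

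**Figure D5:**
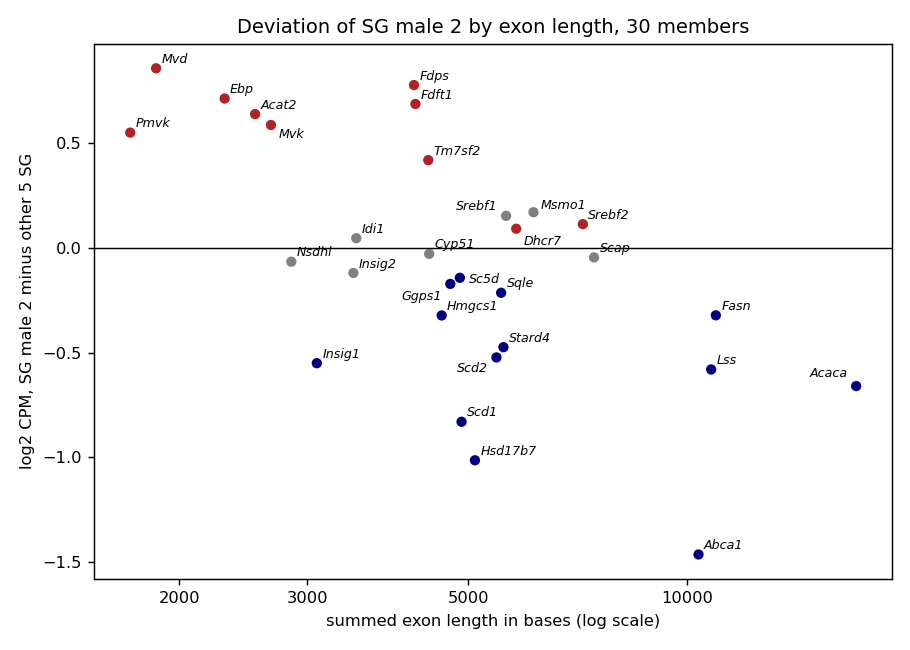
Log2 CPM of SG male 2 minus the mean of the other 5 SG libraries for each member, against the summed exon length on a log scale. Red genes lie above, blue genes below and grey genes within the range of the other 5 libraries; short genes such as Pmvk and Mvd are at the top, and long genes such as Abca1 and Acaca are below 0.

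When each library was weighted by how well it followed its group, SG male 2 got the lowest weight, 0.10. In that fit 20 members passed as lower and 4 as higher, but 17.9% of all genes were then lower and 17.3% higher. Srebf1, Srebf2, Acat2 and Mvk passed in that fit and in each of the other 20 alternatives tried.

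The genotypes also differed in markers of cell types, to be read beside the 5.27% of all genes that passed as lower and 6.16% as higher. Of 8 markers of macrophages and monocytes 5 passed as higher, and the 8 summed to 463 to 861 CPM in YSGr and 223 to 312 CPM in SG. Among the 5, Ccr2 was below 0 log2 CPM in every SG library and met the filter only through YSGr libraries. Of 12 cell cycle genes 2 passed as lower, with sums of 1473 to 2934 CPM in YSGr and 2435 to 2752 in SG. Among 8 genes of granule neuron progenitors, the cells in which these tumours are thought to arise, 4 passed as lower, and among 8 of granule neurons 3 passed as higher. The progenitor list summed to 2651 to 4212 CPM in YSGr and 3638 to 4130 in SG, and the granule neuron list to 2217 to 3574 in YSGr and 1829 to 2351 in SG. Of 6 markers of oligodendrocyte precursors 3 passed as lower, Olig1, Olig2 and Cspg4, by 0.68, 0.67 and 0.54 on the log2 scale, and the list summed to 694 to 904 CPM in YSGr and 887 to 982 in SG. The 4 neutrophil markers tested were below 0 log2 CPM in every SG library and met the filter only through YSGr libraries. That all 4 passed as higher, with log2 fold changes of 2.22 to 3.08, was thus largely set by the filter. The 5 neutrophil markers with values, 1 of them untested, summed to 5.27 to 21.3 CPM in YSGr and 1.72 to 2.37 in SG. At such low levels the sums are partly the floor value that a gene with no reads is given. Of 8 endothelial markers 3 passed as lower, and of 8 of mural cells and fibroblasts 2 passed as lower and 1 as higher. The endothelial sums were 61.2 to 107.7 CPM in YSGr and 90.0 to 144.2 in SG, and the mural and fibroblast sums 116.3 to 255.8 in YSGr and 171.5 to 240.9 in SG. Of 8 astrocyte markers 1 passed as higher and 1 as lower, and of 8 microglia markers 1 passed as lower. These shifts ran beside those of the sterol genes between genotypes, and their part in the result was not tested.

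The neighbouring pathways were counted in 6 further lists. Over all genes 5.27% passed as lower and 6.16% as higher, and 1 call in a list of 10 or 15 genes is not far from these shares. Of 9 genes that process or degrade SREBP and its partners, 0 passed in limma, and the only 1 with an unadjusted p under 0.05 was Mbtps1, the site-1 protease that makes the first cut in SREBP (-0.28, SE 0.09, adjusted p = 0.060). Of 10 genes on the isoprenoid branches Coq2, of ubiquinone synthesis, was higher (0.46, SE 0.13, adjusted p = 0.044) and 0 were lower. Of 15 further lipogenic genes Fads2, the delta-6 fatty acid desaturase, was lower (-0.44, SE 0.09, adjusted p = 0.0058) and 0 were higher. The median of the 15 was -0.13.

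Of 10 LXR receptors and LXR or efflux genes, Abcg1, a cholesterol exporter induced by LXR, was higher (0.77, SE 0.14, adjusted p = 0.0047), 0 were lower and the median was 0.24. Of 16 genes of sterol storage, lysosomal export and transfer, 3 passed as higher and 2 as lower. The largest changes were those of Osbpl5, an oxysterol-binding protein relative (-1.04, SE 0.15, adjusted p = 0.0011), Scarb1, the HDL receptor (-0.86, SE 0.15, adjusted p = 0.0037), and Stard5, a sterol carrier (0.68, SE 0.19, adjusted p = 0.034). Of 7 genes of oxysterol formation and sterol breakdown 0 passed, and the only 1 with an unadjusted p under 0.05 was Cyp27a1, sterol 27-hydroxylase (0.65, SE 0.27, adjusted p = 0.13). Of 8 macrophage and monocyte markers 5 passed as higher in YSGr, where 6.16% of all genes did. Among these 5, Ccr2 met the filter only through YSGr libraries. Lysosomal and efflux genes are also expressed by macrophages. The part of such cells in these values was not tested.

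Within the 12 libraries the enzymes did not all vary alike. The Pearson correlation of a gene with the mean z-score of the other enzymes, given as a description over libraries that share their genotype difference, was 0.92 for Idi1, 0.90 for Cyp51, 0.80 for Fdft1 and 0.79 for Dhcr7. It was near 0 for Ebp (0.02), Hsd17b7 (-0.07), Mvd (-0.07) and Sc5d (-0.07), and negative for Ggps1 (-0.65) and Tm7sf2 (-0.49). Of the genes that are not enzymes, Srebf2 had 0.80, Srebf1 0.73, Insig2 -0.64 and Abca1 -0.70. Outside the 30 the 5 genes most like the mean of the 19 enzymes were Itm2a (0.93), Matn2 (0.91), Gm2897 (0.91), Rxrg (0.90) and Pitpnb (0.90).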

How the data were processed

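Values are log2 CPM, the log2 of counts per library size, as deposited by the authors for 15672 genes in 12 libraries. Per the labels' protocols, RNA was extracted from tumour tissue by a Trizol-type method and BGI prepared and sequenced the libraries (BGISEQ-500). Per the submitters' processing notes, the tools were edgeR 3.30.3, Picard 1.95, Bowtie2, RSEM 1.2.12 and Trimmomatic 0.33, and the build was mm10. What each did, the annotation and the strand setting are not stated in the sources used here.

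As linear CPM the values lay on steps of 0.100 to 0.111 CPM per read and gave whole reads, within 0.02 reads, for 92.1 to 93.1% of genes. These give the estimated reads. The lowest value, -2.24 log2 CPM, is that of a gene with no reads and includes a prior count, so fold changes of low genes are understated. A floor of 3 reads is 0.301 to 0.333 CPM, and every member was above it in every library. Within groups, Pearson correlations across genes were 0.946 to 0.990, and 0 pairs of libraries were identical.

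Tests used limma 3.58.1 under R 4.3.3, and statmod 1.5.0 served the library weights. The fit had 1 coefficient for each of the 4 groups, a mean-variance trend, two-sided tests and Benjamini-Hochberg adjustment over the genes tested, with a threshold of 0.05. Groups came from the labels' genotype and sex. The script was tested on simulated data. Alternatives changed the filter, pseudocount, scaling, variance model, weights or design, or left out libraries. Coordinates and exon lengths are from GENCODE M21 (mm10), which held 99.5% of the genes tested, and promoters are from RefSeq GRCm38.p6. In 29 of 32 member windows the last 25 bases matched a transcript in the sense direction.

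The members and all gene lists were chosen with earlier results of these data known. The oligodendrocyte list was used without 1 of its genes, which is not reported here. Every member is described. Values in each library are given for members past the threshold and 9 preset members, and of each other pathway list the genes with the largest changes past the threshold, up to 3, are named, or else the gene with the smallest p.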

Additional observations from a re-analysis of the deposited data

Results flagged for a closer look

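For each member the 6 libraries of a genotype were examined for a library whose gap to its nearest neighbour is large against the whole range, by Dixon's 95% critical value for 6 libraries. Of 60 such sets 14 met it, where chance gives about 1 in 20, or 3. SG male 2 was the library in 13 of the 14. It was high for Acat2 (6.88 log2 CPM, with 6.15 to 6.29 in the rest of SG), Pmvk (4.65, others 4.01 to 4.18), Mvd (6.11, others 5.16 to 5.30) and Fdps (6.62, others 5.65 to 5.93). It was also high for Fdft1 (7.20, others 6.47 to 6.54) and Ebp (5.50, others 4.61 to 4.92).

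SG male 2 was low for Hmgcs1 (6.65, others 6.90 to 7.03), Lss (4.80, others 5.31 to 5.49), Hsd17b7 (3.71, others 4.59 to 4.84) and Abca1 (5.23, others 6.60 to 6.92). It was low as well for Acaca (6.74, others 7.31 to 7.47), Scd1 (5.36, others 6.03 to 6.29) and Scd2 (9.67, others 10.11 to 10.30). In YSGr, female 12 was high for Fdps, at 5.80 log2 CPM against 5.40 to 5.54 in the other 5 YSGr libraries. Exon length ran beside the direction in SG male 2, as given in the report, and its part in these values was not tested.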

How the results depend on the processing

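Over 21 alternatives the 30 members gave 630 fold changes, of which 574 kept their direction and their side of the threshold, 32 newly passed, 11 no longer passed and 13 changed sign. Counts of members are given with the share of all genes called in the same fit. With library weights 20 members passed as lower (17.9%) and 4 as higher (17.3%) for both sexes, 23 (16.0%) and 3 (15.7%) in females and 7 (7.26%) and 3 (9.18%) in males. The same weights gave 3 members (4.77%) for the difference between the sexes and 5 (12.9%) for females against males in YSGr. With these weights YSGr female 10 carried most of the weight of the YSGr females. Without both SG male 2 and YSGr male 8, chosen after seeing the data, the counts were 8 lower (6.98%) and 2 higher (6.8%) for both sexes, 5 (5.08%) and 1 (3.95%) in females and 0 lower (0.755%) in males. In males 1 member was lower without the filter on low values (2.11%) and 1 without the mean-variance trend (2.06%), and 1 was higher after quantile normalization (4.25%) and 1 after median centring (4.29%). Leaving out each library in turn gave 4 to 10 lower (2.87 to 6.58%) and 0 to 2 higher (3.5 to 8.47%) for both sexes, and 0 to 2 lower (0.418 to 3.2%) and 0 to 1 higher (0.227 to 2.36%) in females. It gave 0 to 4 lower (0.853 to 4.75%) and 0 to 2 higher (1.18 to 7.05%) in males, and 0 to 2 (0.0637 to 7.28%) for females against males in YSGr.

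Signs changed in 5 members. Ebp was at 0.117 with weights, 0.104 without both libraries and -0.107 to 0.0798 over the leave-outs. Acaca was at -0.129, -0.0762 and -0.0738 to 0.102, and Scd1 at -0.094 with weights and -0.0362 without both. After quantile normalization Fasn was at 0.0136 and Scd2 at 0.0146. No paired analysis was possible because replicate numbers run from 1 to 12 without repeats. The cause of these shifts was not tested.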
